A study of Homo sapiens with 4 samples.

Results

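The genes described here encode enzymes of sterol and fatty acid synthesis. They are a fixed list of 31 genes, chosen by their known function and not by a measured value. Earlier results of these data were known when the list was drawn up. All 31 were found by symbol among the 55859 genes that the annotations of both data types share. The list holds 19 enzymes of the sterol pathway, 11 enzymes that make, lengthen or desaturate fatty acids, and *STARD4*, which carries sterol between membranes and is not an enzyme.

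All libraries came from HK2, an immortalized line of human renal proximal tubule cells, treated with 50 µM FG-4592. FG-4592, also called roxadustat, blocks the prolyl hydroxylase enzymes that tag HIF proteins for destruction, and the methods of the study give a treatment of 6 h. The 4 libraries were 2 RNA-seq replicates and 2 replicates of ChIP-seq with an antibody against HIF1α. No library of untreated cells was available, so the values are levels and peaks under FG-4592, and whether any of them changed with the treatment was not tested.

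Cells build cholesterol from acetyl-CoA through mevalonate, farnesyl diphosphate, squalene and lanosterol, and build fatty acids from the same acetyl-CoA through malonyl-CoA. Several of these enzymes use molecular oxygen, among them squalene epoxidase, the demethylases that act on lanosterol and its products, and the fatty acid desaturases. The transcription factors SREBP1 and SREBP2 switch many of the genes on when membrane sterol is low, binding sterol regulatory elements beside NF-Y at CCAAT boxes, while HIF1 binds hypoxia response elements whose core reads ACGTG or GCGTG.

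Of the 31 genes, *SCD* alone had a HIF1α peak at its promoter (within 1 kb of an annotated start) in both ChIP replicates, so the sequence of that peak is shown before the values. The line gives the longest part of the replicate 1 peak that lies outside annotated exons, chr10:102106148-102106442 of GRCh37, plus strand, which is the strand of *SCD*. Capitals mark the 4 response element cores, and a core on the minus strand reads CACGC or CACGT.

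SCD replicate 1 peak: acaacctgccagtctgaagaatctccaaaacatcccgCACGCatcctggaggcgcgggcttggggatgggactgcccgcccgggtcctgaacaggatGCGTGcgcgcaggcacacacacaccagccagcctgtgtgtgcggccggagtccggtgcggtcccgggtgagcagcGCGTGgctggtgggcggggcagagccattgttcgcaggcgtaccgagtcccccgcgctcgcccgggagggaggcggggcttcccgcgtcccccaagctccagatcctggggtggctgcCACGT

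All 31 genes had an FPKM (fragments relative to transcript length and to all mapped fragments, summed over the transcripts of a gene) of at least 1 in both RNA-seq libraries. Among all 19658 protein-coding genes the share was 58.8%. The median of the mean FPKM over the 31 genes was 25.1, against 11.0 over the 11567 protein-coding genes that reached 1 in both libraries, and 23 of the 31 lay above that second value. By library the median was 24.0 in replicate 1 and 27.1 in replicate 2. With the largest transcript of each gene alone, the median of the 31 genes was 13.0. The matching value over protein-coding genes was not calculated. RNA for every listed step was thus present in these cells, at levels that ran from 1.85 for *ELOVL6* to 240.4 for *SCD* (SD 3.25, n = 2) as the mean of both libraries. In bulk RNA, more expressing cells and more RNA per cell cannot be told apart.

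**Figure D1:**
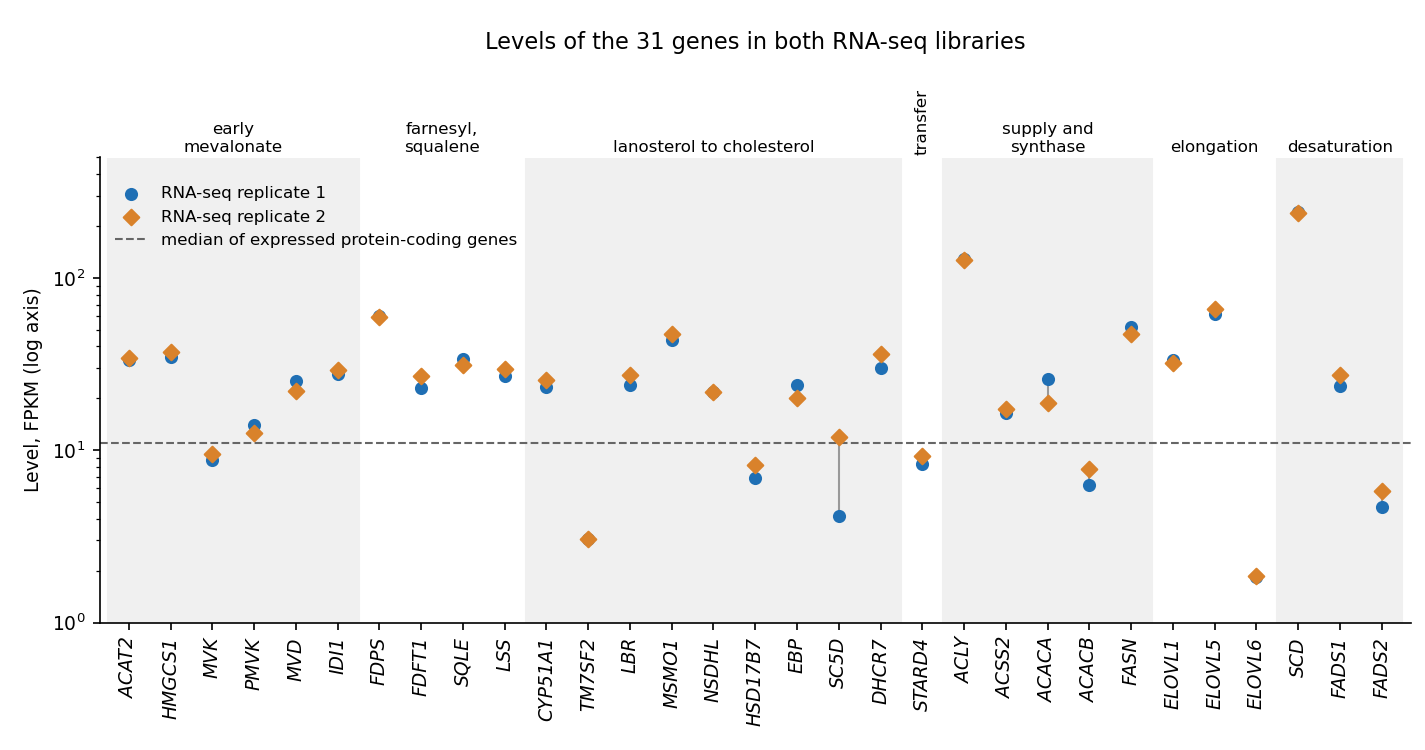
Level of each of the 31 genes in both RNA-seq libraries of FG-4592-treated HK2 cells, in FPKM on a log axis, grouped by role. Circles are replicate 1 and diamonds replicate 2, and the dashed line is the median of 11.0 over expressed protein-coding genes; *SCD* and *ACLY* stand highest, *ELOVL6* lowest, and *SC5D* has the widest gap between the libraries.

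In the early mevalonate steps, *HMGCS1*, whose enzyme joins acetoacetyl-CoA and acetyl-CoA, had 34.9 FPKM in replicate 1 and 37.2 in replicate 2. *ACAT2*, the cytosolic thiolase that supplies its acetoacetyl-CoA, had 33.3 and 34.1. The kinases that phosphorylate mevalonate were lower, with 8.80 and 9.57 for *MVK* and 13.9 and 12.5 for *PMVK*. *MVD* and *IDI1*, which make the isoprenoid building blocks, lay between these pairs. The summed level of these 6 genes was 144.0 in replicate 1 and 144.6 in replicate 2.

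Among the farnesyl and squalene steps, *FDPS*, which makes farnesyl diphosphate, was the highest sterol gene, with 60.1 and 59.2 FPKM. *FDFT1*, which joins farnesyl units into squalene, had 23.1 and 27.1. *SQLE*, the epoxidase that adds oxygen to squalene, had 33.9 and 31.2, and *LSS*, which closes the sterol rings, had 27.1 and 29.5. The last 3 lay between 23.1 and 33.9 in both libraries.

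From lanosterol to cholesterol the 9 genes spread more widely. *MSMO1*, an oxygen-using C4 demethylase, was highest with 43.8 and 47.1 FPKM, and *DHCR7*, which reduces a double bond late in the route, had 29.9 and 36.2. *CYP51A1*, the lanosterol C14 demethylase, had 23.3 and 25.6. The sterol C14 reductases differed in level: *LBR*, which also tethers chromatin at the nuclear envelope, had 23.9 and 27.2, and *TM7SF2* had 3.05 and 3.06, so that *LBR* was 7.84 and 8.88 times as high. In bases of coverage (coverage times length), which also grow with transcript length, the ratio was 25.4 and 26.2. *HSD17B7*, a keto reductase, had 6.88 and 8.16.

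Among the genes with pseudogenes that carry their name, *HSD17B7* had the highest pseudogene level relative to its own. Its 2 annotated pseudogenes summed to 1.84 and 2.17 FPKM, which is 26.7% and 26.6% of its own level, and how the reads were divided between near-identical copies was not tested. Of the 31 genes, 5 have pseudogenes that carry their name, and for *IDI1*, *FDPS*, *CYP51A1* and *SCD* these reached at most 0.637% of the gene's level in either library.

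In fatty acid synthesis, *ACLY*, which splits citrate to give cytosolic acetyl-CoA, had 128.6 and 127.5 FPKM. *ACSS2*, which makes acetyl-CoA from acetate, had 16.5 and 17.3. *FASN*, the synthase, had 51.8 and 47.6. The order of these 3 was the same in both libraries, with the citrate route highest. *SCD*, which puts a double bond into the saturated chain that the synthase and elongases deliver, had 242.7 and 238.1, ranked 176 among all 55859 genes and stood 4.68 and 5.01 times as high as *FASN*.

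Where a step has paralogues, the same gene led in both libraries in all 9 groups compared. *ACACA*, whose carboxylase makes malonyl-CoA for synthesis, exceeded *ACACB*, whose product acts at mitochondria, by 4.09 times in replicate 1 and 2.43 times in replicate 2. *SCD* exceeded *SCD5* by 26.1 and 26.5 times. The carboxylase ratio therefore moved between the libraries by more than 1.5-fold in FPKM, while the desaturase ratio hardly moved. In bases of coverage the carboxylase ratio was 5.01 and 5.11, so it hardly moved on that scale. *IDI2*, the paralogue of *IDI1*, was listed at 0 in both libraries.

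Among the elongases, *ELOVL5*, which lengthens polyunsaturated chains, was highest with 61.4 and 65.9 FPKM. *ELOVL1*, which makes very long saturated chains, followed with 33.5 and 32.2. *ELOVL6*, which lengthens the product of *FASN*, was the lowest of all 7 elongases, with 1.84 and 1.87. The abundant *SCD* and the scarce *ELOVL6* thus marked both ends of the list. Of the front-end desaturases, *FADS1* had 23.6 and 27.4 and *FADS2* 4.69 and 5.83, with *FADS3* between them at 12.3 and 13.5.

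A second list of 37 genes holds other parts of the same pathways, such as paralogues, electron donors and acyl-CoA synthetases. Of these, 30 reached an FPKM of 1 in both libraries and 3 were listed at 0, with a median of 11.5. The highest was *SLC25A1*, the carrier that exports the citrate used by *ACLY*, with 86.0 and 99.0. All 8 genes listed as regulators of the sterol pathway, among them *SREBF1*, *SREBF2* and *SCAP*, reached 1 in both libraries, with a median of 32.8.

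The labelled cell type was checked against 21 epithelial and renal tubule markers, of which 11 reached an FPKM of 1 in both libraries. Their summed level was 797 and 762, and the most abundant was *KRT19*. *PAX8* and *GGT1* were present. *CDH1* (0.211 and 0.379) and *PAX2* (0.287 and 0.359) were below 1, while *CDH2* had 63.8 and 63.7. Of the proximal tubule markers, *MME* (10.1 and 8.94) and *SLC5A2* (2.59 and 1.70) reached 1, while *HNF4A*, *LRP2*, *SLC22A6* and *SLC22A8* were listed at 0, and *CUBN*, *AQP1*, *ANPEP* and *SLC34A1* were below 0.1. Of 15 markers of other cells, *CD68* (33.6 and 31.5) and *COL1A1* (38.7 in both) reached 1 and 8 were listed at 0. The summed level of these 15 was 72.9 and 70.9, and their part in the levels of the lipid enzymes was not tested. *ALB*, *APOA1*, *PLIN1* and *ADIPOQ*, markers of liver and fat cells, which make much lipid, were below 0.1 in both.

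The RNA-seq replicates were close for most of the 31 genes. With 1 added to each FPKM, the log2 ratio of replicate 2 to replicate 1 had a median of 0.07 and a median absolute value of 0.12. Over 11726 protein-coding genes whose mean FPKM reached 1, these medians were 0.01 and 0.12. More genes were higher in replicate 2 (21) than in replicate 1 (10), where 51.7% of those protein-coding genes were higher in replicate 2. The Pearson correlation of log2(FPKM + 1) across the 31 genes, which are not independent, was 0.981, and 0.993 without *SC5D*. These libraries carry the same treatment, so the ratios measure spread and no effect.

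*SC5D*, an oxygen-using desaturase near the end of the sterol pathway, was the 1 gene of 31 more than 1.5-fold apart, where 3.30% of those protein-coding genes were. Its FPKM was 4.18 in replicate 1 and 11.9 in replicate 2, a log2 ratio of 1.32. The tables also give coverage per exon, and summed over the transcripts of the gene this was nearly equal in exon 2, at 91.0 and 85.8. In exon 3 it was 17.8 in replicate 1 and 92.9 in replicate 2, and in exon 5, which is 1638 bp long and the last, it was 10.7 and 62.1. The libraries therefore differed most over exons 3 and 5 and hardly over exon 2.

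The next largest differences were those of *ACACA*, with 25.8 and 18.8 FPKM and a log2 ratio of -0.43, and of *DHCR7*, *FADS2* and *ACACB*, with ratios of 0.27, 0.26 and 0.26. Bases of coverage, taken as coverage times length and scaled to the total of each library, give a second measure that weighs every base of a transcript alike. On that scale the log2 ratio was -0.02 for *ACACA*, -0.09 for *DHCR7* and -0.04 for *ACACB*. It was 0.37 for *FADS2* and 1.63 for *SC5D*, with nothing added before the ratio. Without the added 1, the FPKM of *FADS2* and *SC5D* was 1.24 and 2.85 times as high in replicate 2. The log2 ratio in bases was above 0 for 17 of the 31 genes and below 0 for 14. Among the protein-coding genes 50.5% lay above 0, so the surplus of genes higher in replicate 2 was smaller than in FPKM. For *ACACA*, *DHCR7* and *ACACB* the difference in FPKM was thus not present in the bases covered.

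*FADS2* differed in its last exon, where coverage was 6.09 in replicate 1 and 2.31 times that in replicate 2, while in exon 11, the one before it, coverage was 39.6 and 35.0. The last exon of *ACACB* went the other way, with 9.22 and 2.91 against 15.8 in both over the other exons of its canonical transcript. With *SC5D* and *TM7SF2*, these were the 4 genes of 31 whose last exon differed between the libraries by more than 2-fold relative to the other exons of the canonical transcript, against 10.99% of 11310 expressed protein-coding genes. Over all 31 genes the median ratio of replicate 2 to replicate 1 was 0.996 in last exons and 0.938 in other exons, where the ratio of total coverage was 0.946.

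**Figure D2:**
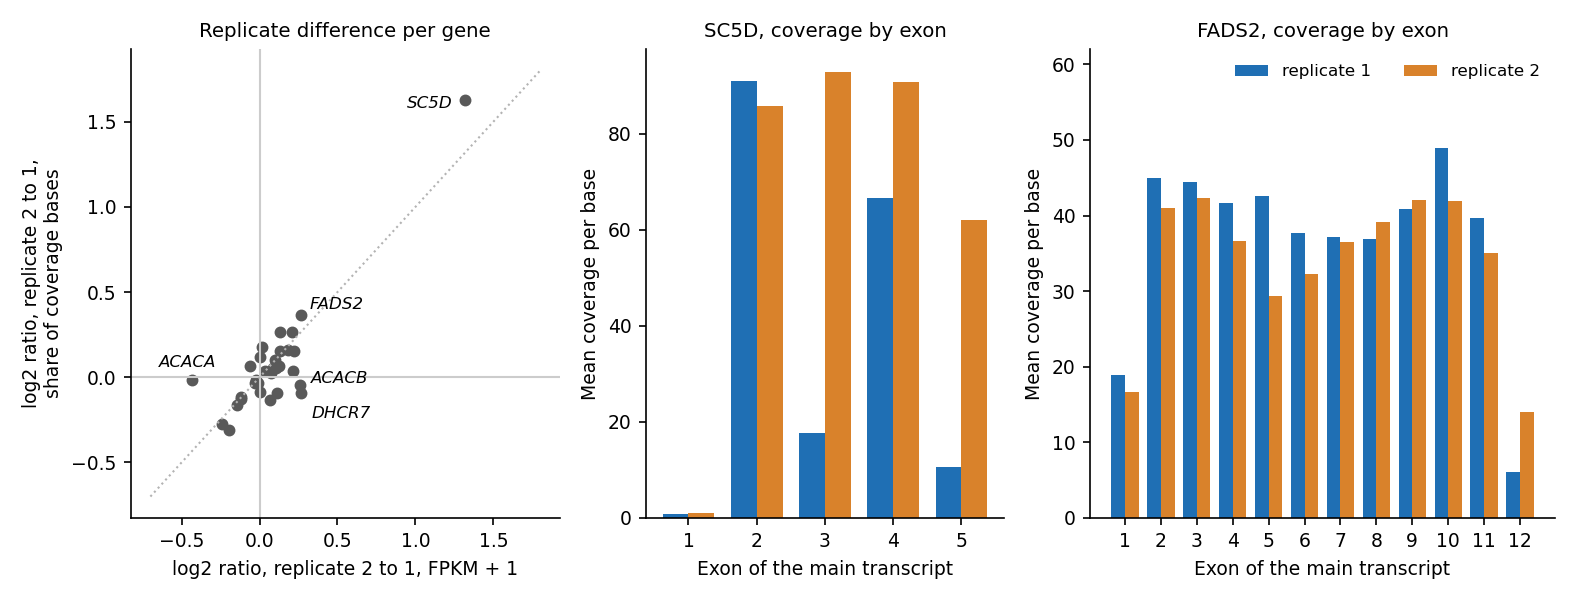
Left, the log2 ratio of replicate 2 to replicate 1 for each of the 31 genes in FPKM and in bases of coverage, with a dotted line where both are equal. Middle and right, mean coverage per base in each exon of *SC5D* and *FADS2*, summed over transcripts, with bars for both libraries; *SC5D* is low in replicate 1 over exons 3 and 5, and *FADS2* is low in replicate 1 over exon 12.

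The split of a gene's FPKM among its transcripts was less stable than the sum. The tables list 363 transcripts of the 31 genes, and of the 104 with a mean FPKM of at least 1, 34 were more than 1.5-fold apart, against 24.5% of 28667 such transcripts of protein-coding genes. *SCD* and *PMVK* have a single listed transcript. Over the 31 genes the largest transcript held a median of 46.5% of the FPKM in replicate 1 and 51.0% in replicate 2. In 8 of the 29 genes with several transcripts, the largest was not the same in both libraries, against 22.4% of 11096 protein-coding genes.

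**Figure D3:**
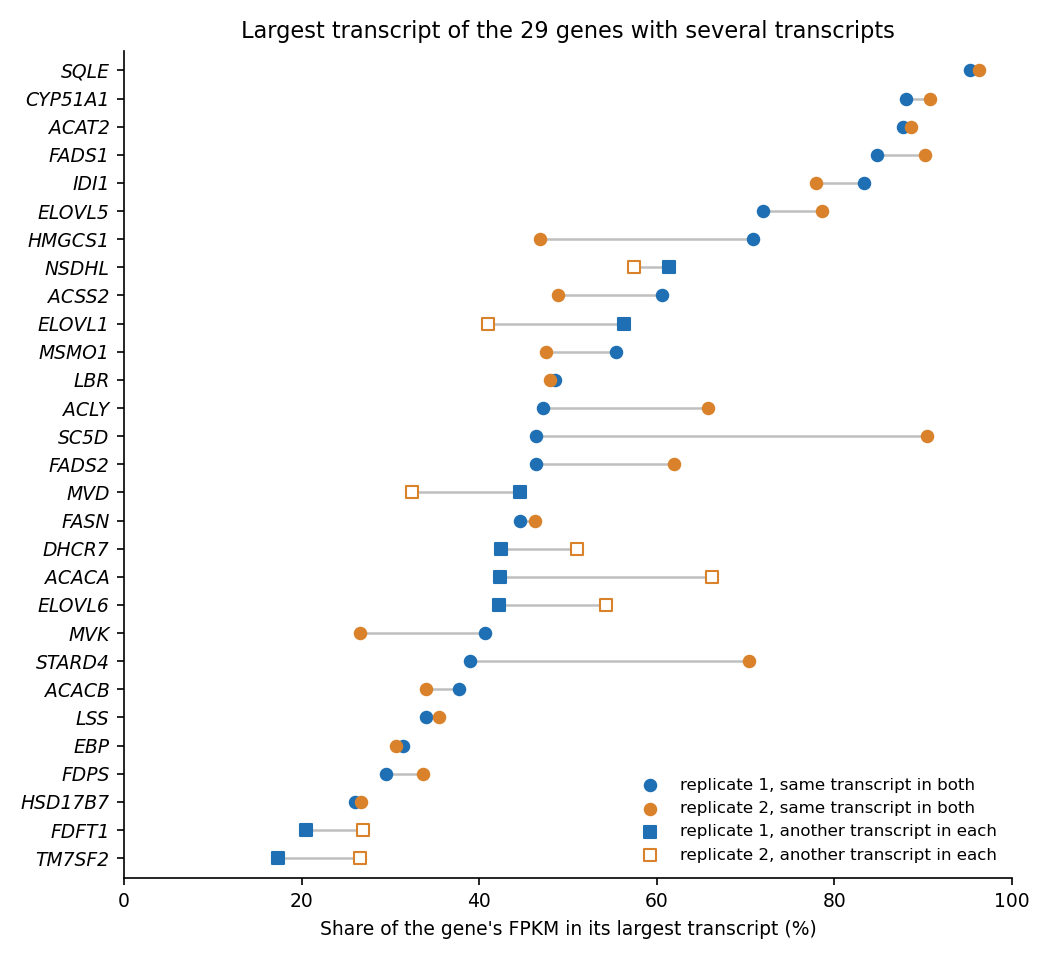
Share of each gene's FPKM held by its largest transcript in each RNA-seq library, for the 29 genes with several transcripts. Circles mark the 21 genes with the same largest transcript in both libraries and squares the 8 with a different one; *SC5D* and *STARD4* moved furthest among the former.

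*ELOVL1* shows the size of such switches. Its transcript ELOVL1-201 had 18.9 FPKM in replicate 1 and 0.872 in replicate 2, and ELOVL1-216 had 0.191 and 13.2, while the gene's sum stayed at 33.5 and 32.2. *NSDHL*, a sterol dehydrogenase, kept a sum of 21.8 and 21.9 while NSDHL-203 had 13.4 in replicate 1 and 0.554 in replicate 2. Its transcript NSDHL-201 had 6.03 and 12.6. For *ACACA*, the transcript ACACA-245 had 10.9 in replicate 1 and was listed at 0 in replicate 2. The sums of *ELOVL1* and *NSDHL* were alike in both libraries while their largest transcript was not the same.

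Transcripts annotated as protein-coding held a median of 87.7% of the FPKM in replicate 1 and 88.2% in replicate 2, where transcripts missing from GENCODE 44 have no type and count as not coding. Such transcripts held 34.0% and 41.0% of *FDFT1*, 17.3% and 19.0% of *MVK* and 7.51% and 4.43% of *HSD17B7*. *MVD* was lowest with 25.0% and 39.5%, and its largest transcript in replicate 1 was a retained intron form. *HSD17B7* had 39.5% and 42.6%, with a transcript annotated for nonsense-mediated decay as its largest in both libraries. For *LSS* a retained intron form was the largest in both, with 34.0% and 35.5% of the gene. Coding transcripts held 54.6% and 53.8% of *LSS*, and less of *EBP* (45.4% and 50.1%) and *TM7SF2* (53.4% and 44.7%). They held below 50% in 3 of the 31 genes in replicate 1 and in 4 in replicate 2. For *SQLE* they held 98.1% and 98.6%.

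Before the peaks are described, the ChIP replicates need to be set apart. The replicate 2 list is rich in exon sequence: 91.2% of its 6082 promoter peaks had at least 50% of their bases in annotated exons, against 46.1% of the 1075 promoter peaks of replicate 1. Each result is therefore given by replicate. A promoter peak is one that overlaps the 1 kb on either side of any annotated start, and among 15 reference HIF1 target genes, 12 had such a peak in the replicate 1 list, 11 in that of replicate 2 and 10 in both. Without peaks that have at least 50% of their bases in exons, these numbers were 7, 5 and 4. Both lists thus held peaks at some well-known targets. These targets were listed with earlier results of these data known, so the numbers are a reference for the lipid genes and no test of the peak lists.

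In replicate 1, 1 of the 31 genes, *SCD*, had a promoter peak, against 5.49% of all protein-coding genes and 8.68% of those with an FPKM of at least 1 in both libraries. In replicate 2 there were 6, namely *FDFT1*, *SQLE*, *FASN*, *SCD*, *FADS1* and *FADS2*, against 14.05% and 20.2%. *SCD* alone had one in both, against 1.79% and 2.91%. In this window the count of the list in replicate 2 was near these shares, and the counts in replicate 1 and in both rest on 1 gene. With 500 bp the count in replicate 2 was 5 of 31, against 16.2% of expressed protein-coding genes. With wider windows the counts in replicate 2 were above the shares, at 14 of 31 against 32.4% with 3 kb and 26 of 31 against 50.5% with 10 kb. These counts include peaks over exons, and counts without such peaks were not made for wider windows. The list also had a higher median FPKM than the expressed genes (25.1 against 11.0), and its part in these counts was not tested. Leaving out replicate 1 raises the count in both from 1 to 6.

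The window mattered for replicate 1. With 500 bp in place of 1 kb no gene of the list had a promoter peak, against 8.07% of the expressed protein-coding genes, and with 3 kb there were 3, *SCD*, *ACACB* and *MVD*, against 9.54%. The peak near *MVD*, which decarboxylates mevalonate diphosphate, lay 1775 bp downstream of an internal start, past the end of the gene, and within 1 kb of a start of *CYBA*. The peak near *ACACB* lay 1658 bp before an internal start and inside the gene, outside exons. The next nearest were 35035 bp from *FDPS* and 46183 bp from *LBR*. The median gap over the 31 genes was 285593 bp, against 287346 bp over the expressed protein-coding genes, and it was over 1 Mb for 7 genes, against 22.5%.

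**Figure D4:**
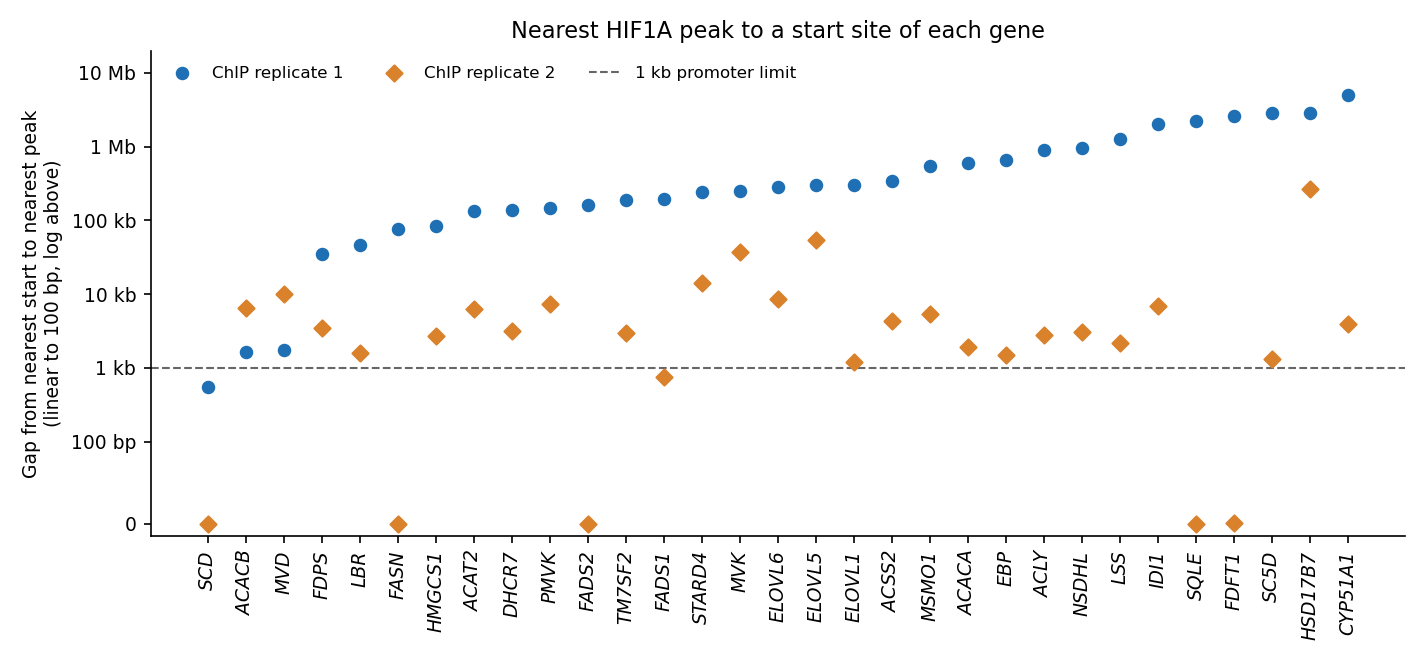
Gap between the nearest start site of each of the 31 genes and the nearest HIF1α peak, for ChIP replicate 1 (circles) and replicate 2 (diamonds), on an axis that is linear to 100 bp and logarithmic above. Below the dashed line at 1 kb lie 1 gene in replicate 1 (*SCD*) and 6 in replicate 2.

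The *SCD* peak of replicate 1, chr10:102106032-102106442, was centred 753 bp before the start of *SCD*. A replicate 2 peak, chr10:102106135-102106394, lay wholly inside it, with centres 27 bp apart, and had 5.00% of its bases in exons. All 3 of the cores in this replicate 2 peak are among the 4 cores in the sequence printed above. They are centred 803, 743, 668 and 550 bp before the start, and the core at 743 bp lay 10 bp from the middle of the replicate 1 peak, of which 25.1% is exon sequence. A core within 100 bp of the centre was common in replicate 1, found in 92.5% of its promoter peaks. A non-coding RNA gene on the minus strand, ENSG00000231188, starts 843 bp before *SCD* and inside both peaks, so which gene the peak belongs to cannot be told apart by position.

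**Figure D5:**
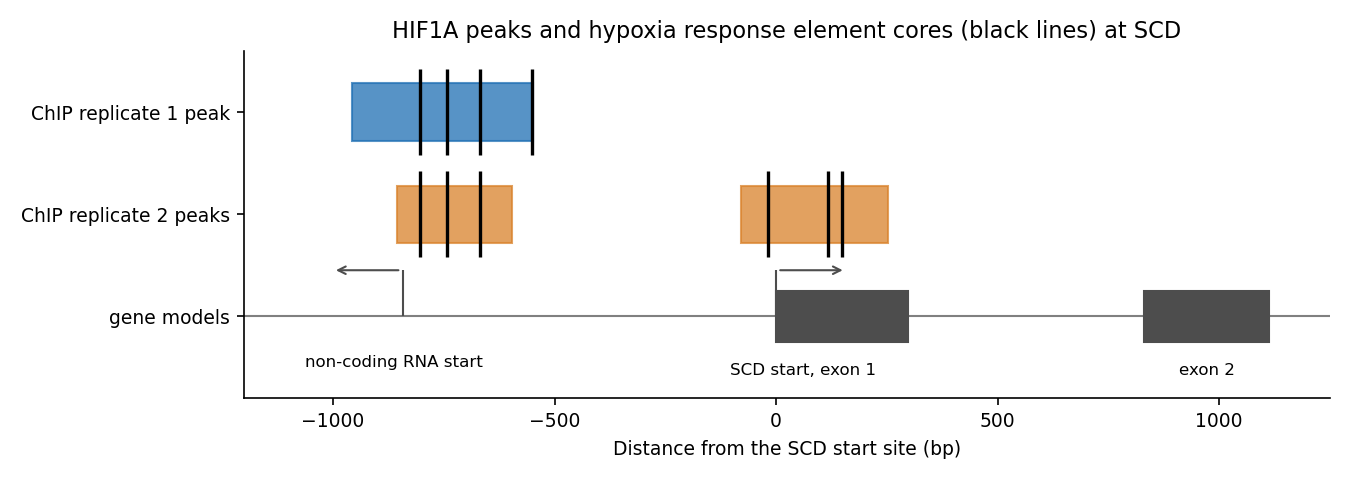
Peaks of both ChIP replicates around the start of *SCD*, by distance from the start in bp. Boxes are peaks and gene exons, black lines are response element cores on either strand, and arrows are start sites; the upstream peaks of both replicates overlap between 855 and 596 bp before the start.

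The other replicate 2 peaks of the list lay over exons, as did most promoter peaks of that replicate. A second peak at *SCD* was centred 87 bp after its start, with 76.5% of its bases in exons. In all, 10 distinct replicate 2 promoter peaks met the 6 genes, 9 had at least 50% of their bases in exons, where 91.2% of all replicate 2 promoter peaks did, and 5 had a core within 100 bp of the centre, where 31.2% did. *FASN* had 5 of them, with 97.7% to 100% of their bases in exons. *FADS1* and *FADS2*, whose annotated spans overlap on opposite strands, shared the peak chr11:61595764-61596024. Without peaks that have at least 50% of their bases in exons, *SCD* alone remained in replicate 2, against 1.44% of the expressed protein-coding genes.

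Across gene bodies the replicates differed in the same way. In replicate 2, 23 of the 31 genes had peaks in their gene body, and in replicate 1 only *ACACB* did, with 1. Counted gene by gene, the replicate 2 peaks numbered 47. *FADS1* lies inside the annotated span of *FADS2*, so its 2 peaks are counted under both genes. Among expressed protein-coding genes the shares were 53.6% in replicate 2 and 8.97% in replicate 1. Peaks covered a median of 15.9% of the exon bases of a gene in replicate 2, up to 78.8% for *SCD*, and none in replicate 1. The Spearman correlation between that share and mean FPKM was 0.52 across the 31 genes, which are not independent, so the more abundant genes had more of their exon bases in replicate 2 peaks. Whether RNA-derived reads contribute to the replicate 2 list was not tested.

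In the second list, *SLC25A1* had a promoter peak in replicate 1, and 4 of the 37 genes had one in the replicate 2 list, with none in both, and all of these peaks had 100% of their bases in exons. Of the 8 regulators, *SREBF1*, *INSIG1* and *INSIG2* had one in replicate 1 and *SCAP* in replicate 2, again with none in both. The peaks of *SREBF1* and *INSIG2* had no base in exons, those of *INSIG1* had 53.4% to 100% and that of *SCAP* 100%. Among expressed protein-coding genes the shares, as above, were 8.68% in replicate 1, 20.2% in replicate 2 and 2.91% in both.

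Promoter sequences, 250 bases before to 50 after a start, came from RefSeq on GRCh38.p14, and 27 of the 31 genes matched, with 38 promoters between them. *ACAT2*, *FASN*, *FDFT1* and *SQLE* have no entry. Letters were sought on both strands. CCAAT, the box bound by NF-Y, was present in 22 of the 27, against 39.7% of all 27305 genes in the table and 43.6% of the 9498 expressed protein-coding ones. A promoter with 2 or more was found for 16 of the 27, against 12.9% and 16.4%. The box was about as frequent in sterol enzymes (13 of 16) as in fatty acid enzymes (8 of 10).

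Parts of promoters with repeated boxes are shown next, since 16 of the 27 genes had them. Each line gives the longest stretch before the start that lies outside annotated exons, for *SCD* and for the 3 other genes with the most boxes there, with CCAAT in capitals (ATTGG where it is on the minus strand). The coordinates on GRCh38.p14 are chr10:100346983-100347123 (plus strand) for *SCD*, chrX:152830813-152830966 (plus) for *NSDHL*, chr4:165327419-165327622 (plus) for *MSMO1* and chr16:88663162-88663297 (minus) for *MVD*. The run of 8 capitals in *NSDHL* holds a box on each strand.
SCD promoter: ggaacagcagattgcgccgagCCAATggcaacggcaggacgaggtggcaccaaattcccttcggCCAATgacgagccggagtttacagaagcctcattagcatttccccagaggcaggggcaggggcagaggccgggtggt
NSDHL promoter: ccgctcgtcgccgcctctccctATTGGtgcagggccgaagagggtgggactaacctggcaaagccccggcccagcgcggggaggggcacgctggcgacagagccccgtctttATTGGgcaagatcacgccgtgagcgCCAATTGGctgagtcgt
MSMO1 promoter: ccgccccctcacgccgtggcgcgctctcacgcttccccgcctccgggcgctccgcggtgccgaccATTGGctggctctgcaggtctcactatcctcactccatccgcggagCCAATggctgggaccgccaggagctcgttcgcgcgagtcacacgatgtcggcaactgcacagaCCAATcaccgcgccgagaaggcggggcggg
MVD promoter: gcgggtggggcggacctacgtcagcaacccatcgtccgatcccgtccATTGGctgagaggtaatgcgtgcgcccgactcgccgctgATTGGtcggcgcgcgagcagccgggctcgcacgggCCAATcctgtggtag

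The sterol regulatory element pattern TCACNCCAC was in none of the 27, and in 1.39% of all genes and 1.46% of expressed ones. In windows of 1 kb on either side of the start on GRCh37, it was present for 2 of the 27, *HMGCS1* (beginning 259 bp before the start) and *ACACB*, against 10.0% of 19560 protein-coding genes. The pattern is a strict one, and its absence says only that these letters are not in these windows. ACGTG or GCGTG was present in 25 of the 27, against 52.4% and 71.5%, and CACGTG, which contains ACGTG, in 3, against 8.77% and 13.2%. Of these 25 genes, *SCD* alone had a promoter peak in replicate 1, and that peak lay 958 to 548 bp before the start, outside these promoter sequences. The core letters were thus common near the starts where no replicate 1 peak was listed.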

How the data were processed

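For each ChIP-seq replicate, the authors called peaks with MACS2 from reads that Bowtie2 had placed at a unique position on hg19. The deposited lists give positions only, with no score, and their depth is unknown. The authors mapped RNA-seq reads with HISAT2 and ran StringTie 1.3.3 on GENCODE 27. The study's methods name hg19 for this mapping, while the deposited tables carry GRCh38 coordinates. These tables give coverage, FPKM and TPM per transcript, with no read counts. Coverage times length summed to 4442 and 4202 Mb. FPKM was summed by gene here. Peaks were compared with GENCODE 44 on GRCh37 and joined to levels by gene identifier, with no conversion of coordinates. Whether the RNA-seq used strand was not stated, so how reads of overlapping genes were divided is unknown.

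No test was run, since all libraries carry 1 treatment, and most counts of genes called stand beside the share over all or expressed protein-coding genes. Text could name all 31 genes, the listed pathway genes, regulators, HIF1 targets and markers, and genes that start within 1 kb of a promoter peak. Genes with a replicate 1 promoter peak and the 5 with the largest replicate difference are described in full. *CYBA*, and members singled out by exon coverage, transcripts or promoter letters, were chosen after their values were seen. Members and lists were chosen with earlier results of these data known. Alternatives covered the unit, minimum, pseudocount, transcripts, promoter window, start sites, overlap, motif window and each replicate. Functions were tested on simulated data. The tools were samtools 1.23.1 and, in Python 3.11.15, pysam 0.24.0, scipy 1.17.1, pandas 2.3.3, numpy 2.4.6 and matplotlib 3.10.9.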

Additional observations from a re-analysis of the deposited data

How the results depend on the processing

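Of 57 alternatives, 41 left a result within 1.5 times its count or within the spread between replicates, and 16 moved it. Reversal of a result was not assessed. For the median log2 ratio the spread, 0.086, was larger than the value itself, 0.07, so its alternatives could hardly be called moved. Leaving out a library could not move the share of the largest transcript, because the spread came from the same difference. The median FPKM of the 31 genes was 69.4 in TPM, another unit, 13.0 with the largest transcript alone and 18.6 with protein-coding transcripts alone, and 24.0 to 27.1 without either RNA-seq library. With the largest transcript alone, 3 genes were more than 1.5-fold apart (*MVD*, *SC5D* and *STARD4*). The share over protein-coding genes was not calculated for that setting, so this count cannot be set against other genes. The share of the largest transcript, 48.7% as a mean of the libraries, was 46.5% to 51.0% without either one and 64.6% in bases of coverage. Genes with a promoter peak in replicate 1 numbered 0 with a window of 500 bp and 3 with 3 kb or 10 kb, where the last took in 11.8% of expressed protein-coding genes. In replicate 2 there were 14 with 3 kb (32.4% of expressed protein-coding genes), 26 with 10 kb (50.5%), 3 with the most upstream start of each gene alone (7.58%) and 1 without peaks that have at least 50% of their bases in exons. In both replicates there were 0 with 500 bp (2.45%), 2 with 10 kb (7.64%), and 1 to 6 without either replicate. The sterol regulatory element pattern was in 2 genes within 1 kb of the start. Protein-coding transcripts, bases of coverage, leaving out *SC5D*, and all alternatives for transcript shares and paralogues were chosen after seeing the data. The cause of these shifts was not tested.

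No paired analysis was possible because all libraries carry the same treatment and no groups were compared. With 2 libraries per assay each spread rests on 1 difference. The peak lists hold no score, so no stricter threshold was tried, and the tables hold no read counts, so no counting error is given for an FPKM.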

Other observations

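Among the genes that pass electrons to the oxygen-using enzymes, *POR* had 36.8 FPKM in replicate 1 and 35.6 in replicate 2, and *CYB5R3* had 59.0 and 60.6. The cytochromes *CYB5A* and *CYB5B* were lower, at 8.26 and 10.8 and at 12.4 and 14.4. Of the acyl-CoA synthetases, *ACSL4* was highest with 28.8 and 32.8, and *ACSL6* was below 0.01 in both libraries. In the elongation cycle the dehydratase *HACD3* had 59.0 and 59.1, the enoyl reductase *TECR* 67.3 and 61.4 and the keto reductase *HSD17B12* 22.9 and 25.3, so *HACD3* and *TECR* stood near *ELOVL5*, the highest elongase.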
